A study of Mus musculus with 6 samples.

Results

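Known p53 target genes were followed through the transcriptome of cultured mouse pancreatic acini. The 10 genes (Cdkn1a, Mdm2, Ccng1, Phlda3, Bax, Trp53inp1, Zmat3, Eda2r, Sesn1 and Gdf15) were taken by gene name from a count table of 56953 genes, with 1 row each, and all 10 were among the 14738 genes abundant enough to test. The study prepared bulk RNA-seq libraries from acinar cells, which make the digestive enzymes of the pancreas, at day 3 of an explant assay of acinar-to-ductal metaplasia (ADM), in which acini turn into duct-like structures. There were 6 libraries in 3 groups of 2: untreated wild-type acini (WT), untreated acini of Dkk3-null mice (DD) and DD acini treated with recombinant DKK3 (DD + rDKK3). The cells of all 3 groups grew in Waymouth medium with 10% FBS and 10 µg/ml dexamethasone.

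The Dkk3 knockout, which removes exon 2 and with it the signal sequence of the secreted protein, is present in every cell of the animal, acini and other cell types alike. The labelled ages were 10 and 11 weeks in WT, 12 and 13 weeks in DD, and 14 and 15 weeks in DD + rDKK3, and age and group cannot be told apart. These ages rise in equal weekly steps from library to library, and whether they were recorded from the animals is not known. WT 2 was labelled female and the other 5 libraries male. The labels name no animal for a library. The sample names of DD 1 and DD 2 recur in those of DD + rDKK3 1 and DD + rDKK3 2, with different labelled ages. Whether such libraries came from the same pancreas is not given in the sources used here. The p-values therefore measure only the spread between these libraries, which may be technical.

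p53 is a transcription factor that DNA damage and other stresses stabilise. It binds a response element made of a pair of decamers, and induces genes that halt the cell cycle, repair or protect the cell, or kill it. One of its targets, Mdm2, marks p53 for destruction, which closes a negative feedback loop. In the pancreas, p53 is best known as a tumor suppressor that is frequently lost in ductal adenocarcinoma.

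To show how the genes relate to p53 in sequence, the response element was searched for in the GRCm39 genome within 5000 bases of each gene start. The search looked on both strands for 2 abutting matches to the p53 consensus decamer, with no spacer. The main setting allowed no mismatch, and 1 of the 10 genes, Zmat3, had such a match, beside 38 of the 14738 tested genes (0.258%). As an alternative, at most 1 mismatch in the 20 bases was allowed. With it, 6 of the 10 genes had a match, beside 508 of the 14738 tested genes (3.45%). The 8 matches are printed 5′ to 3′ on the strand of the gene, and the capitals mark the 4-base core of each decamer. The consensus core is a C, then A or T at both middle bases, then a G. For Mdm2 (CAAT), Eda2r (TATG) and the Ccng1 match before the gene (CCTG), the mismatch lies within a core.
Cdkn1a, chr17:29309902-29309921, before the gene: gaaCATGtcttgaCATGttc
Ccng1, chr11:40646289-40646308, before the gene: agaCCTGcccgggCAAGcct
Ccng1, chr11:40645763-40645782, intron: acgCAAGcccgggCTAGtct
Mdm2, chr10:117547575-117547594, before the gene: gggCAATtccgggCAAGtcc
Gdf15, chr8:71084616-71084635, exon (UTR): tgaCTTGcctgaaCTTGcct
Eda2r, chrX:96420297-96420316, exon (UTR): gaaTATGcccggaCTTGtcc
Zmat3, chr3:32418480-32418499, exon, outside coding and UTR annotation: aaaCAAGcccaggCATGtct
Zmat3, chr3:32424300-32424319, before the gene: gagCAAGtctgggCTTGtta

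The match in the Zmat3 exon, centred 1674 bases after the gene start, was the only 1 among the 10 genes without a mismatch, and 38 of all tested genes (0.258%) had such a match. The Cdkn1a match lay closest to a start, 38 bases before it. Those of Ccng1 lay 160 bases before and 366 bases after the start, that of Mdm2 922 bases before it, and those of Gdf15 and Eda2r 480 and 516 bases after it. Within 1000 bases of the start, 5 of the 10 genes had a match with at most 1 mismatch, beside 0.597% of tested genes, and none had an exact match, beside 0.0204%. Bax, Phlda3, Sesn1 and Trp53inp1 had no match in these windows, which says only that these letters were not found there. A match is a description of sequence and not evidence of binding. In the 300-base RefSeq promoter windows (GRCm38.p6), which covered 8 of the 10 genes, the windows of Ccng1 and Cdkn1a held a match with at most 1 mismatch, beside 0.0883% of all windows, and none held an exact match, beside 0.00913%.

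Across the 6 libraries the totals ranged from 12018473 to 19750401 counts, and DD 2 and DD + rDKK3 2 stood apart from the other 4 on the first principal component (42.3% of the variance), and WT 1 on the second (32.3%). WT 1 was the lowest library for 30.5% of tested genes and the highest for 27.9%. DD 2 and DD + rDKK3 2 also had the highest sums of 11 fibroblast and stellate cell markers, at 891 and 988 CPM (counts scaled to library depth) beside 57.5 to 186 in the others, and of 8 macrophage markers, at 259 and 199 CPM beside 58.7 to 131. The sum of 4 mesothelial markers was highest in DD 2, at 34.7 CPM beside 8.43 to 14.7. Markers of acini dominated every library, with sums of 92160 to 158800 CPM over 11 genes, and 4 to 6 of 6 lymphocyte markers were at 0 in each library. The targeted gene could not check the labels: Dkk3 had 10 and 1 counts in WT, 11 and 9 in DD, against 5 and 5 in DD + rDKK3. Dkk3 was below the filter on low counts, and the null allele lacks only exon 2, which a count over the whole gene does not single out.

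All 10 targets were expressed in every library. Per kilobase of exon, levels ranged from 2.68 ± 0.280 CPM for Eda2r to 120.7 ± 8.70 CPM for Ccng1 (SD, n = 6 libraries). Cdkn1a was next, with 76.5 ± 7.30 CPM per kilobase, above 97.5% of tested genes, then Trp53inp1 (48.6 ± 7.56), Bax (33.5 ± 5.62), Gdf15 (28.1 ± 9.34) and Phlda3 (19.1 ± 2.86). Sesn1 (7.97 ± 1.58), Mdm2 (7.71 ± 0.434) and Zmat3 (5.35 ± 0.964) followed. The ranges over libraries of Trp53inp1 and Bax, Bax and Gdf15, Gdf15 and Phlda3, and Sesn1 and Mdm2 overlapped, whereas the other neighbours in this order were separate in all 6 libraries.

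**Figure D1:**
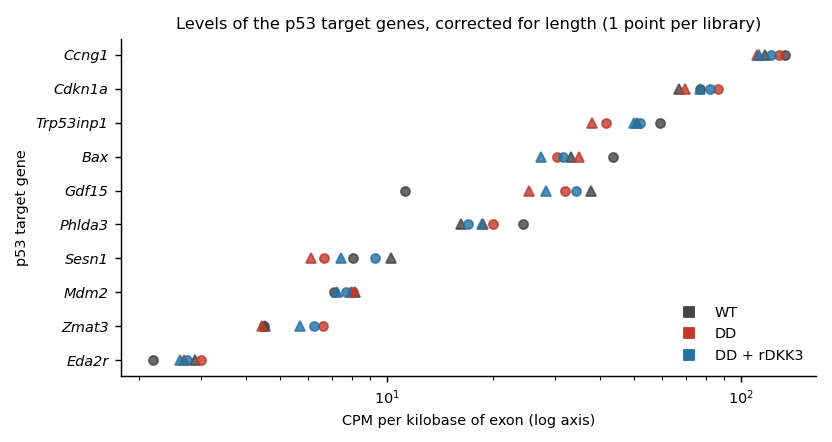
Level of each p53 target gene in CPM per kilobase of exon on a log axis, with 1 point per library (grey WT, red DD, blue DD + rDKK3; circle replicate 1, triangle replicate 2). Genes are sorted by mean, from 120.7 for Ccng1 to 2.68 for Eda2r, and Gdf15 in WT 1 lies to the left of its other 5 points.

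Among the cell cycle genes, Cdkn1a, which encodes the CDK inhibitor p21 and is the classical p53 target, reached 466 and 405 CPM in WT, 521 and 420 in DD, with 496 and 465 in DD + rDKK3. The 3 groups overlapped, and the highest and lowest library differed only 1.29-fold. In DD against WT the log2 fold change was 0.11 (SE 0.186, 95% interval -0.32 to 0.55, adjusted p = 0.825, edgeR quasi-likelihood test). Against WT, DD + rDKK3 gave 0.14 (SE 0.186), and against DD it gave 0.030 (SE 0.186).

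Ccng1, which encodes cyclin G1, a partner of the PP2A phosphatase that acts on MDM2, had 586 and 515 CPM in WT, 564 and 490 in DD, then 535 and 496 in DD + rDKK3. Again no group stood apart. The fitted log2 fold changes were -0.063 (SE 0.177) for DD against WT, -0.031 for DD + rDKK3 against DD and, between DD + rDKK3 and WT, -0.095. The level of Ccng1 per kilobase was 1.46 to 1.75 times that of Cdkn1a in every library.

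Mdm2, the ubiquitin ligase that degrades p53, was the steadiest of the 10 genes. It had 54.8 and 62.9 CPM in WT, 62.0 and 61.3 in DD, against 59.4 and 55.9 in DD + rDKK3, a coefficient of variation of 5.63% beside 18.3% for the median tested gene. Its level per kilobase was above 77.1% of tested genes, and its spread was not compared with genes of similar level. Both DD + rDKK3 libraries lay below both DD libraries, by a log2 fold change of -0.096 (SE 0.144), and DD and WT overlapped (0.066, SE 0.145).

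Transcripts of the upstream regulators were read in the same way. Trp53, which encodes p53 itself, had 24.5 and 24.4 CPM in WT, 30.0 and 25.2 in DD, with 24.9 and 27.0 in DD + rDKK3. Both DD libraries exceeded both WT libraries, but the log2 fold change of 0.18 (SE 0.157) did not pass the test (adjusted p = 0.679, edgeR). p53 is regulated mostly as a protein, which these data do not measure. Mdm4, a relative of MDM2 that masks the activation domain of p53, had 14.0 and 22.3 CPM in WT, 18.98 and 16.6 in DD, then 22.3 and 24.2 in DD + rDKK3. DD against WT gave a log2 fold change of -0.033 (SE 0.234), and DD + rDKK3 against DD 0.38 (SE 0.231, adjusted p = 1, edgeR).

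For the 3 targets with roles in cell death or survival signaling, the DD and WT libraries overlapped. Bax, a pore-forming protein of the mitochondrial death pathway, had 81.0 and 61.6 CPM in WT, 56.3 and 65.0 in DD, against 58.5 and 50.7 in DD + rDKK3. WT 1 was the highest library, and both DD + rDKK3 libraries lay below both WT libraries (log2 fold change -0.38, SE 0.184, adjusted p = 0.344, edgeR), a difference that shrank to -0.15 without WT 1 and reached -0.56 without WT 2. Phlda3, a p53-induced inhibitor of AKT, had 62.8 and 41.9 CPM in WT, 51.7 and 48.3 in DD, with 43.9 and 48.2 in DD + rDKK3. WT held both the highest and the lowest of these values. Eda2r, a receptor of the TNF receptor family, had 16.4 and 21.6 CPM in WT, 22.5 and 20.1 in DD, then 20.5 and 19.6 in DD + rDKK3, with WT 1 alone lower.

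Trp53inp1 and Sesn1 were the genes of the list with the largest differences between DD and WT. Trp53inp1, a nuclear stress protein that assists p53 and takes part in autophagy, had 434 and 374 CPM in WT, 307 and 280 in DD, against 382 and 368 in DD + rDKK3. Sesn1, a leucine-sensing inhibitor of mTORC1, had 40.5 and 51.8 CPM in WT, 33.6 and 30.9 in DD, with 46.8 and 37.4 in DD + rDKK3. For both genes the DD libraries were the lowest 2 of the 6, and neither WT nor DD + rDKK3 overlapped with them.

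In DD against WT, Trp53inp1 had a log2 fold change of -0.46 (SE 0.169, 95% interval -0.86 to -0.07, unadjusted p = 0.027, adjusted p = 0.586, edgeR), and Sesn1 of -0.52 (SE 0.183, 95% interval -0.94 to -0.09, unadjusted p = 0.0231, adjusted p = 0.586, edgeR). Neither passed the test over all genes. In DD + rDKK3 against DD, which shares the DD libraries, the values were 0.35 (SE 0.169) for Trp53inp1 and 0.39 (SE 0.182) for Sesn1, with an adjusted p of 1 for both (edgeR). Between DD + rDKK3 and WT they were -0.11 and -0.13. The signs in the first 2 comparisons were the same under each of 15 alternatives, and neither gene was called. As the DD libraries overlapped with neither other group, leaving out libraries could hardly turn these signs. Most other alternatives refit the same libraries, so the stable signs add little. Without DD 2 and DD + rDKK3 2, the libraries with many fibroblast transcripts, the log2 fold changes in DD against WT were -0.40 and -0.46, and neither gene then reached an unadjusted p under 0.05. The sum of 11 acinar markers, in which enzymes such as Ctrb1 weigh most, was also lower in DD (107200 and 92160 CPM) than in WT (158800 and 121300). By gene, 8 of the 11 had a log2 fold change below 0 in DD against WT and 3 above, the acinar transcription factors Ptf1a (0.41), Bhlha15 (0.55) and Rbpjl (0.11), and all 11 had one above 0 in DD + rDKK3 against DD. The part of these markers in the values of Trp53inp1 and Sesn1 was not tested. In bulk RNA, fewer cells of a type and less RNA per cell cannot be told apart.

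**Figure D2:**
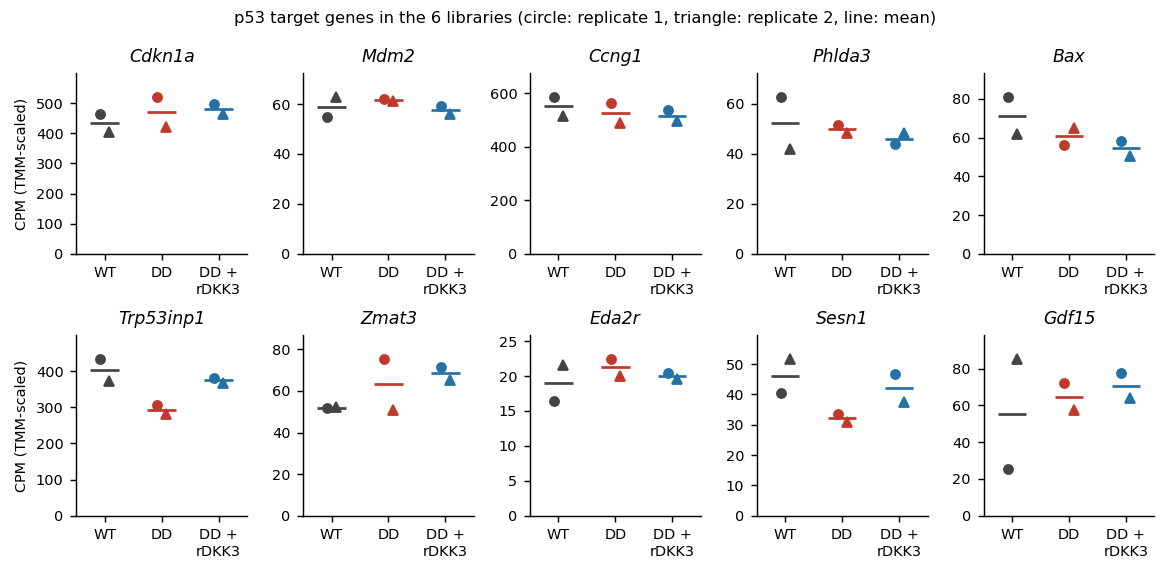
CPM of the 10 p53 target genes in each library, grouped as WT, DD and DD + rDKK3, with a line at each group mean of 2 libraries and every axis starting at 0. The DD points of Trp53inp1 (307 and 280) and Sesn1 (33.6 and 30.9) lie under all points of the other groups, and Gdf15 spans 25.5 to 85.3 within WT.

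The remaining targets were Zmat3 and Gdf15. Zmat3, an RNA-binding protein that controls splicing, had 51.6 and 52.0 CPM in WT, 75.5 and 51.0 in DD, then 71.6 and 65.4 in DD + rDKK3. Both treated libraries lay above both WT libraries (log2 fold change 0.40, SE 0.201, adjusted p = 0.354, edgeR), whereas DD 1 was the highest and DD 2 the lowest of all 6. DD against WT gave a log2 fold change of 0.29 (SE 0.201) for Zmat3, and 1 DD library decided it: 0.54 without DD 2 and 0.0026 without DD 1.

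Gdf15, a secreted cytokine of the TGF-β superfamily that rises in many kinds of stress, varied most. It had 25.5 and 85.3 CPM in WT, 72.2 and 57.3 in DD, against 77.6 and 63.7 in DD + rDKK3. WT 1 was the lowest library and WT 2 the highest, 3.34-fold apart, and the low value rested on 260 counts. DD against WT gave a log2 fold change of 0.22 (SE 0.461, 95% interval -0.85 to 1.29), and it moved to -0.38 without WT 1 and to 1.35 without WT 2. Against WT, DD + rDKK3 gave 0.34 with all libraries, -0.25 without WT 1 and 1.47 without WT 2.

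**Figure D3:**
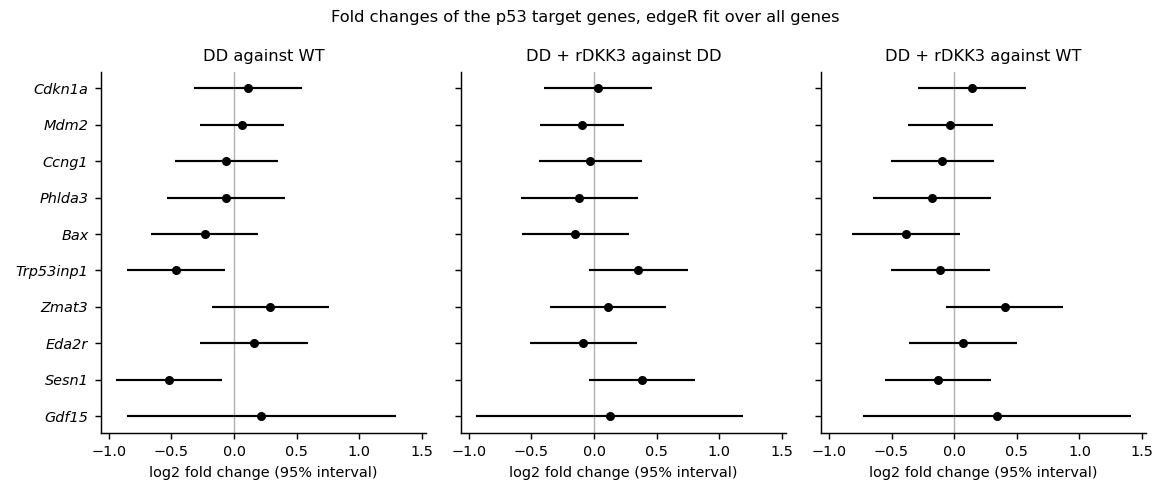
Log2 fold changes of the 10 genes with 95% intervals from the edgeR fit over all genes, for the 3 comparisons of WT, DD and DD + rDKK3. Only the intervals of Trp53inp1 (-0.86 to -0.07) and Sesn1 (-0.94 to -0.09) in DD against WT lie apart from 0, before adjustment over 14738 genes, and the interval of Gdf15 is the widest.

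Counted together, none of the 10 genes was called at an adjusted p under 0.05 in any comparison by edgeR, DESeq2 or limma-voom. Among all tested genes edgeR called 0.0407% between DD and WT, 0% between DD + rDKK3 and DD, then 0.0475% between DD + rDKK3 and WT. DESeq2 called 0.522%, 0.0339% and 0.231% in the same order, and limma-voom 0.0543%, 0% and 0.0204%. So few calls were made anywhere that a count of 0 in 10 genes is near the background.

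At an unadjusted p under 0.05 (edgeR), 2 of the 10 genes were lower in DD than in WT, Trp53inp1 and Sesn1, beside 3.99% of tested genes lower, 4.27% higher and 8.26% in either direction. None of the 10 reached it in DD + rDKK3 against DD (background 0.597% higher, 1.38% lower, 1.98% in all) or in DD + rDKK3 against WT (7.34% higher, 8% lower, 15.3% in all). In DD against WT the groups did not overlap for 2 of 10 genes, both lower in DD, beside 19.7% of tested genes lower and 18.1% higher. In DD + rDKK3 against DD, Trp53inp1 and Sesn1 were higher without overlap and Mdm2 and Phlda3 lower (background 15.1% higher and 14.4% lower). Relative to WT, Zmat3 was higher in DD + rDKK3 and Bax lower (background 27.9% and 27.1%).

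The directions were evenly split. The log2 fold change was above 0 for 5 of 10 genes between DD and WT (background 51.7%), for 5 between DD + rDKK3 and DD (49.5%), then for 4 between DD + rDKK3 and WT (51.6%). The median over the 10 genes was 0.0018 in DD against WT beside 0.016 over all tested genes, -0.00048 beside -0.0028 for DD + rDKK3 against DD, then -0.063 beside 0.017 for DD + rDKK3 against WT. From the highest to the lowest library, 8 of the 10 genes varied less than the median tested gene (1.63-fold), and Sesn1 (1.68-fold) and Gdf15 (3.34-fold) varied more. All 10 were in the top 50% of tested genes by level per kilobase, and 5 in the top 10%. Their spread was not compared with genes of similar level.

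Within groups the 10 genes differed between replicates. In DD, 9 of the 10 were higher in DD 1 than in DD 2, all but Bax, beside 52.1% of all tested genes, and in DD + rDKK3, 9 of 10 were higher in the first library, all but Phlda3, beside 49.5%. These counts may not be separate observations. The sample names recur between the 2 groups, and their replicate differences correlated at 0.65 over 14738 genes. In WT 5 of 10 were higher in WT 1. The mean of the 10 genes, as log2 CPM centred on each gene's mean, was -0.060 and 0.052 in WT, 0.061 and -0.11 in DD, with 0.091 and -0.031 in DD + rDKK3, and all 3 groups overlapped. The libraries with the lower values in the Dkk3-null groups were the ones with the high fibroblast and macrophage marker sums, and the part of other cell types in these values was not tested.

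**Figure D4:**
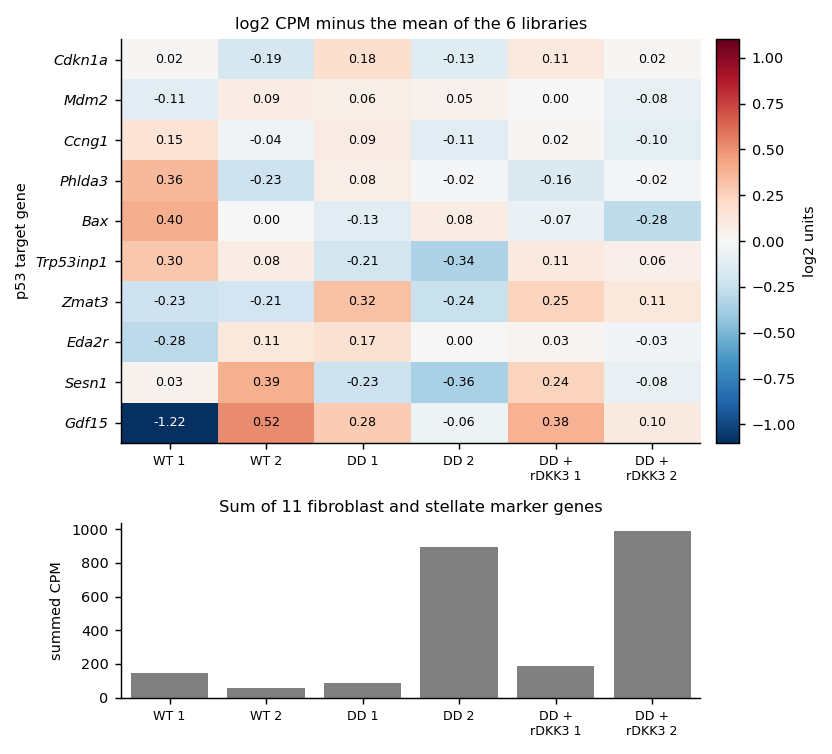
Top, log2 CPM of each p53 target gene minus its mean over the 6 libraries (red above the mean, blue below), and bottom, the summed CPM of 11 fibroblast and stellate markers in the same libraries. Gdf15 in WT 1 (-1.22) is the lowest cell, and the bars of DD 2 (891) and DD + rDKK3 2 (988) stand above the rest.

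The wider p53 pathway was read from lists of related genes, and no gene of these lists was called by edgeR in any comparison. The lists are not separate sets. Bbc3, Pmaip1, Sesn2 and Ddit4 of the further p53 targets recur in later lists, and Mdm4 is in the lists of regulators and of paralogs. Of 28 further p53 targets, 14 had a log2 fold change above 0 in DD against WT and 14 below, with a median of 0.0075. At an unadjusted p under 0.05, 2 were higher and 3 lower, beside 4.27% and 3.99% of all tested genes. Gadd45a, a stress sensor of the DNA damage response, had 59.3 and 44.7 CPM in WT, 34.4 and 27.3 in DD, then 30.5 and 25.3 in DD + rDKK3. It was lower than WT in all 4 Dkk3-null libraries, with log2 fold changes of -0.75 (SE 0.202, adjusted p = 0.586, edgeR) in DD and -0.90 (SE 0.203, adjusted p = 0.321, edgeR) in DD + rDKK3. Of the 28 genes, 7 were lower and 7 higher without overlap in DD against WT, beside 19.7% and 18.1% of all tested genes. In DD + rDKK3 against WT, 4 were lower and 5 higher, beside 27.1% and 27.9%.

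Bbc3, which encodes the pro-apoptotic protein PUMA, had 12.9 and 10.0 CPM in WT, 7.76 and 7.47 in DD, against 10.1 and 10.5 in DD + rDKK3, so that the DD libraries were lowest (log2 fold change -0.58, SE 0.202, adjusted p = 0.586, edgeR). The stress kinase Plk3 was highest in DD, with 15.3 and 15.7 CPM in WT, 24.0 and 19.9 in DD, with 16.6 and 17.4 in DD + rDKK3 (log2 fold change in DD against WT 0.50, SE 0.171, adjusted p = 0.586, edgeR). The other 2 of these 5, named after their values were seen, were Tigar, a regulator of glycolysis (0.47), and the death receptor Fas (-0.67). In DD + rDKK3 against WT, 2 of the 28 were lower at an unadjusted p under 0.05 (edgeR) and 0 higher, beside 8% and 7.34% of tested genes. These were Gadd45a and Rps27l, a ribosomal protein paralog, which gave -0.58. None of the 28 reached an unadjusted p under 0.05 in DD + rDKK3 against DD, where 1.98% of tested genes did.

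A list of 16 genes held regulators of p53 together with Trp53 itself, Trp63 and Trp73. Of these 16, 13 were tested, Trp53 among them. Their median log2 fold change was 0.080 between DD and WT, 0.037 between DD + rDKK3 and DD, then 0.15 between DD + rDKK3 and WT. Usp7, a deubiquitinase of MDM2 and p53, had 42.3 and 45.0 CPM in WT, 62.8 and 50.6 in DD, then 62.0 and 61.9 in DD + rDKK3. All 4 Dkk3-null libraries were above WT, with log2 fold changes of 0.38 (SE 0.157, adjusted p = 0.586, edgeR) and 0.50 (SE 0.157, adjusted p = 0.321, edgeR). Of the 13 tested genes, 3 were higher without overlap in DD against WT, beside 18.1% of all tested genes. In DD + rDKK3 against WT 7 were, beside 27.9%. At an unadjusted p under 0.05 (edgeR), 1 of the 13 was higher in DD than in WT and 0 lower, beside 4.27% and 3.99%. Between DD + rDKK3 and WT, 2 of the 13 were higher at that threshold and 1 lower, beside 7.34% and 8% of all tested genes. These were Usp7 and the p53 kinases Hipk2 (0.76) and Chek2 (-0.62). Trp63, Trp73 and Cdkn2a, the relatives of p53 and the gene of the MDM2 inhibitor ARF, were below the filter on low counts.

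Cell cycle genes that p53 represses through p21 were examined next, as a readout downstream of Cdkn1a. Of 17 such genes, 14 had a log2 fold change above 0 in DD against WT, 1 after adding rDKK3 to DD, then 8 between DD + rDKK3 and WT, with medians of 0.27, -0.29 and -0.021, beside 51.7%, 49.5% and 51.6% of all tested genes above 0. The first 2 comparisons share the DD libraries, and these differed: in DD 2 all 17 genes were above their WT mean, in DD 1 only 6, in DD + rDKK3 1 only 2 and in DD + rDKK3 2, 13. Mki67, a marker of proliferating cells, was the only 1 at an unadjusted p under 0.05, with 1.77 and 2.81 CPM in WT, 4.02 and 5.58 in DD, against 2.80 and 5.75 in DD + rDKK3 (DD against WT log2 fold change 1.05, SE 0.429, adjusted p = 0.586, edgeR). Over all tested genes, 4.27% were higher at that threshold in DD against WT. The highest values of Mki67 were in DD 2 and DD + rDKK3 2, the libraries with the high fibroblast marker sums, and the part of those cells was not tested. Among 6 other CDK inhibitor genes, 5 were tested, 2 with a log2 fold change above 0 in DD against WT and none at an unadjusted p under 0.05.

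Among 14 BCL-2 family relatives of Bax, 13 were tested, 5 with a log2 fold change above 0 and 8 below in DD against WT (median -0.14). Bmf, a pro-apoptotic BH3-only protein, had 44.9 and 50.8 CPM in WT, 44.3 and 39.4 in DD, with 60.8 and 65.8 in DD + rDKK3. The treated libraries were the highest, with a log2 fold change of 0.60 against DD (SE 0.148, adjusted p = 1, edgeR) and 0.40 against WT (SE 0.149, adjusted p = 0.321, edgeR). In each of these comparisons 2 of the 13 were higher without overlap, beside 15.1% and 27.9% of all tested genes. At an unadjusted p under 0.05 (edgeR), Bmf was the only 1 of the 13 higher, beside 0.597% and 7.34%.

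Of 12 genes related to the 10 genes, 9 were tested. Most of the list are paralogs, but Eda and Gfral are not. Among those tested, Phlda1, a relative of Phlda3, had the largest log2 fold change between DD and WT. It had 20.9 and 25.2 CPM in WT, 44.5 and 48.4 in DD, then 25.7 and 25.9 in DD + rDKK3, and both DD libraries stood apart from the other 4. DD against WT gave a log2 fold change of 1.01 (SE 0.154, adjusted p = 0.23, edgeR), and DD + rDKK3 against DD -0.85 (SE 0.152, adjusted p = 1, edgeR), where Phlda3 itself had -0.062 and -0.12. Ccng2, the paralog of Ccng1, gave 0.49 in DD against WT, and Phlda2 -0.96 in DD + rDKK3 against DD. Relative to WT, Trp53inp2 gave 0.48 (SE 0.164) and Sesn3 0.44 (SE 0.177) in DD + rDKK3, both at an adjusted p of 0.321 (edgeR). Trp53inp1 and Sesn1 had -0.11 and -0.13, and differences between a gene and its relative were not tested. At an unadjusted p under 0.05 (edgeR), 2 of the 9 tested genes were higher in DD against WT (background 4.27%). In DD + rDKK3, 2 were lower than in DD (1.38%) and 2 higher than in WT (7.34%).

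Gdf15 is also a known target of ATF4, the transcription factor of the integrated stress response. A list of 12 genes was therefore drawn up, which held ATF4 targets and Atf4 itself. This list shares Sesn2 and Ddit4 with the further p53 targets. Of the 12 genes, 10 had a log2 fold change below 0 in DD against WT (median -0.38), 3 between DD + rDKK3 and DD (median 0.11), then 9 between DD + rDKK3 and WT (median -0.28). Over all tested genes, 51.7%, 49.5% and 51.6% were above 0 in the same order. The first 2 comparisons share the DD libraries. At an unadjusted p under 0.05, 5 were lower in DD than in WT, beside 3.99% of all tested genes, and none was called. Chac1, a glutathione-degrading enzyme, had 40.6 and 39.8 CPM in WT, 26.2 and 20.6 in DD, against 31.95 and 24.3 in DD + rDKK3, with a log2 fold change of -0.78 in DD against WT (SE 0.192, adjusted p = 0.557, edgeR). The pseudokinase gene Trib3 gave -0.68 and Psat1, an enzyme of serine synthesis, -0.47 in the same comparison, beside 0.22 for Gdf15. The remaining 2 of the 5, named after their values were seen, were Phgdh (-0.61) and Atf4 itself (-0.45).

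**Figure D5:**
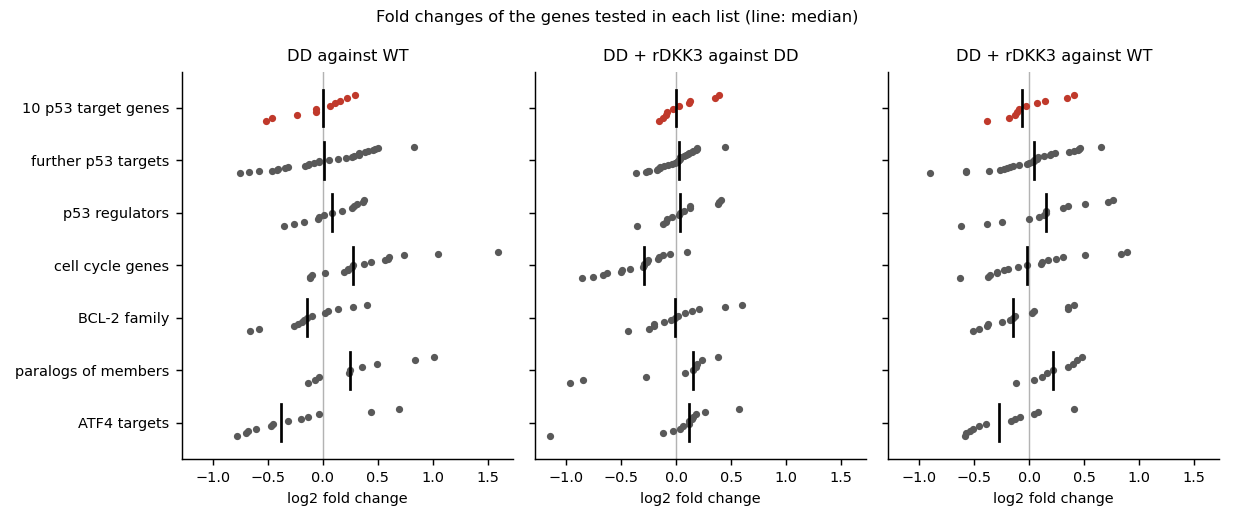
Log2 fold change of each tested gene in the 10 p53 target genes (red) and in 6 lists of related genes (grey), with a line at each median, for the 3 comparisons. A gene that is in several lists is shown in each. The paralog list also holds Eda, which is not a paralog, and the list of ATF4 targets also holds Atf4 itself. The medians of the 10 genes lie at 0.0018, -0.00048 and -0.063, and that of the ATF4 targets in DD against WT lies at -0.38.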

How the data were processed

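The deposited table holds raw counts, which the authors obtained by aligning strand-specific paired-end reads with STAR 2.7.9a to GRCm39 and counting exon overlaps of GENCODE M32 genes. The submitters' processing notes also name Picard 2.19.2, DESeq2 1.38.0 and R 4.2.2. Counting over whole genes hides isoforms and shows no protein. Spike-in rows (92, all at 0 counts) were left out, and 56953 genes remained.

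Genes were filtered with filterByExpr (minimum count 10, minimum total 15), scaled by TMM and fitted with the quasi-likelihood model of edgeR 4.0.16 in R 4.3.3 over all 6 libraries by group, with 3 residual degrees of freedom. Adjusted p-values are Benjamini-Hochberg values over 14738 genes, and a gene was called under 0.05. CPM used TMM-scaled totals, and lengths were summed exons of GENCODE M39. Centred log2 CPM used a prior count of 2. Alternatives were DESeq2 1.42.0, limma-voom (limma 3.58.1), other scalings, no filter, only the groups compared, replicate blocks and leaving out libraries. The script was tested on simulated counts. With 2 libraries against 2, an exact permutation test cannot go below p = 0.333, and none is given. Replicates differed beyond counting noise (chi-square per degree of freedom 21.49 to 61.06).

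Gene members, lists and tests were chosen with earlier results of these data known. Named are the 10 genes, Trp53, Mdm4, Dkk3 and, from each related list, up to 3 genes a comparison with the smallest unadjusted p under 0.05. Response elements were searched in GRCm39 around the deposited gene starts.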

Additional observations from a re-analysis of the deposited data

How the results depend on the processing

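None of the 10 genes was called under any of 15 alternatives in any comparison. Scaling by library size alone shifted all genes, to medians of 0.22 in DD against WT and 0.18 in DD + rDKK3 against WT, where the medians of the 10 genes were 0.21 and 0.10. That scaling turned Ccng1 to 0.15 and Phlda3 to 0.16 in DD against WT, Cdkn1a to -0.013 in DD + rDKK3 against DD, and Mdm2 to 0.13, Ccng1 to 0.077, Phlda3 to 0.0056, Trp53inp1 to 0.064 and Sesn1 to 0.016 in DD + rDKK3 against WT. Without a filter Mdm2 was 0.014 there. The response element count of 1 gene became 6 with 1 mismatch and 0 within 1000 bases, the first because more sequences match and the second because fewer bases were searched. The cause of the other changes was not tested.

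Leaving out libraries, singly or DD 2 with DD + rDKK3 2 (an alternative chosen after seeing the data), gave these log2 ranges in DD against WT: Cdkn1a -0.026 to 0.26, Mdm2 -0.014 to 0.18, Ccng1 -0.15 to 0.048, Phlda3 -0.32 to 0.27, Eda2r -0.0092 to 0.38 and Gdf15 -0.38 to 1.35. In DD + rDKK3 against DD the median of the 10 genes ran from -0.11 without DD 2 to 0.11 without DD 1, Cdkn1a from -0.12 to 0.17, Ccng1 from -0.13 to 0.051, Bax from -0.27 to 0.062, Zmat3 from -0.14 to 0.40 and Gdf15 from -0.037 to 0.28. In DD + rDKK3 against WT the median ran from -0.096 to 0.058, Mdm2 from -0.11 to 0.079, Ccng1 from -0.18 to 0.022, Phlda3 from -0.44 to 0.16, Trp53inp1 from -0.21 to 0.022, Eda2r from -0.091 to 0.29, Sesn1 from -0.30 to 0.063 and Gdf15 from -0.25 to 1.47. The genes at an unadjusted p under 0.05 in DD against WT, 2 with all libraries, numbered 0 (without both DD 2 and DD + rDKK3 2) to 2, and in DD + rDKK3 against WT, 0 with all libraries, up to 3 without WT 2. Where a group kept 1 library, it was assumed to vary like the others.

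The replicate numbers were not taken to pair libraries. Deviations of same-numbered libraries correlated at -0.39 (WT with DD), -0.25 (WT with DD + rDKK3) and 0.65 (DD with DD + rDKK3). The last value and the recurring sample names are no reason against pairing DD with DD + rDKK3, and the main test of that comparison took the libraries as unpaired. With a replicate block within the Dkk3-null libraries, 0 of the 10 genes were called. A replicate block over all groups left 0 of the 10 genes called, and Trp53inp1 in DD against WT at -0.46. Over all genes the calls were 6, 0 and 7 in the order of the report, 7, 0 and 5 with that block, 65, 0 and 77 with a block within Dkk3-null libraries, 77, 5 and 34 by DESeq2, 8, 0 and 3 by limma-voom, and 528, 73 and 788 without a filter. Single libraries left out gave 2 to 6, 0, and 2 to 9 calls. The lowest count among the 10 genes was 167 (Eda2r in WT 1), well over the minimum count of 10.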
